A study of Mus musculus with 2 samples.

Results

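The 10 genes of a chosen Hippo pathway list were taken from the 21911 genes measured in 4T1 cells, by matching Ensembl identifiers to GENCODE M21 mouse symbols. They are the TEAD transcription factors (Tead1, Tead2, Tead3 and Tead4), the coactivators YAP and TAZ (Yap1 and Wwtr1), the MST kinases (Stk3 and Stk4) and the LATS kinases (Lats1 and Lats2). All 10 were found, and all 10 averaged at least 1 FPKM (fragments per kilobase, with the library's mapped total divided out) over the 2 libraries. Genes at or above this mean are called the expressed genes below. The list was selected on FPKM insofar as Tead1 and Stk4 were chosen by their opposite fold changes in these same libraries, so that these changes are described and support nothing.

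The 4T1 line was derived from a mammary carcinoma of a mouse. In each of 2 libraries, 5000000 cells were kept for 48 h, with PBS in the control library and with potassium oxalate in the other. The sample label gives the oxalate dose as 20 µM, as do the study's methods, whereas the treatment protocol in the labels gives 20 mM. With 1 library per condition there was no replicate error, no test between conditions was possible, and every difference below lacks a replicate check. A treatment effect and a difference between these 2 cultures or libraries cannot be told apart.

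In the Hippo pathway, MST kinases, bound to the scaffold SAV1, phosphorylate LATS kinases, which phosphorylate YAP and TAZ and so keep them out of the nucleus. When the kinases are inactive, YAP and TAZ enter the nucleus and bind TEAD factors, which supply the DNA binding and switch on growth genes such as Ccn1 and Ccn2. The pathway responds to cell density, cell shape and matrix stiffness and restrains growth in many epithelia. Its signaling runs mainly through phosphorylation, which RNA levels do not show.

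The depth, estimated from the steps between low FPKM values, was about 56800000 reads for PBS and 36500000 reads for oxalate. The 8 mammary epithelial markers, among them Epcam and Krt8, lay between 82.71 and 703.31 FPKM in the 2 libraries. Of 10 markers of other cell types, 9 had a mean under 1 FPKM, and the leukocyte markers Ptprc, Cd3e, Adgre1 and Ly6g were listed at 0 in both libraries. The exception was the collagen gene Col1a1, with 143.48 FPKM with PBS and 144.61 FPKM with oxalate. The summed level of these 10 markers was 144.33 FPKM with PBS and 145.33 FPKM with oxalate.

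The paralogs are alike enough for it to matter whether their reads can be told apart. The 60 coding bases in which Tead1 is most like the other TEAD mRNAs, summed over them, are shown. They lie at bases 43 to 102 of the Tead1 coding sequence, and capitals mark bases that differ from Tead1.
Tead1: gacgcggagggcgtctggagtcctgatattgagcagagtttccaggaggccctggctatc
Tead2: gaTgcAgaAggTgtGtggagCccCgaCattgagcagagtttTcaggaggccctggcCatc
Tead3: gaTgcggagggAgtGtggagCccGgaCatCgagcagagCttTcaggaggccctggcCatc
Tead4: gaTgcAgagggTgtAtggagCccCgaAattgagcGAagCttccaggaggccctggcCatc
Even here Tead2 and Tead3 differed from Tead1 at 10 bases each and Tead4 at 11. Over the whole coding sequence Tead1 was identical to Tead2 at 72.8% of aligned bases, to Tead3 at 73.7% and to Tead4 at 73.9%, and no run of identical bases was longer than 17. The corresponding 60 bases most alike in the 2 MST mRNAs, at bases 256 to 315 of the Stk4 coding sequence, are given with the bases of Stk3 that differ from Stk4 in capitals.
Stk4: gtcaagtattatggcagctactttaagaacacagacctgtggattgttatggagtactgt
Stk3: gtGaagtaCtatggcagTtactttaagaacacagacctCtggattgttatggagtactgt
The Stk3 stretch differed at 4 bases, and the full coding sequences were identical at 76.9% of aligned bases. Searched in the sense direction only, no stretch of 50 bases in the coding transcripts of Tead1 occurred in another TEAD mRNA. No such stretch of Stk4 occurred in another annotated gene in that direction, and opposite strands were not searched. In Tead1, 25 of 10663 such stretches (0.234%) occurred in other genes. Tead3 and Tead4 had 10 such stretches in common, and their coding sequences shared a run of 59 identical bases. In Stk3, 47 of 3007 stretches (1.56%) occurred in other genes. The largest share among the members was that of Lats2, at 43.3%. These Lats2 stretches also belong to Gm49361, an overlapping gene on the same strand that was not among the genes listed, so that the Lats2 value is uncertain.

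The FPKM of 8 of the 10 members was nearly equal in the 2 libraries, while Tead1 was lower and Stk4 higher with oxalate. The fold change is given as log2((oxalate + 1)/(PBS + 1)), a scale that understates the change of low genes. Tead1 and Stk4 were the only members past 2-fold, and the same 2 were past 1.5-fold. Of the 10267 expressed genes 0.653% were past 2-fold in either direction and 1.99% past 1.5-fold, of which 0.935% were higher and 1.05% lower with oxalate, and nothing is read from the members' count because these 2 genes were picked for it. The log2 fold changes of the other 8 members ran from -0.05 to 0.17, with a median of 0.043, beside a median of 0.0031 over all genes. Of all expressed genes, 55.7% fell in the range of these 8.

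**Figure D1:**
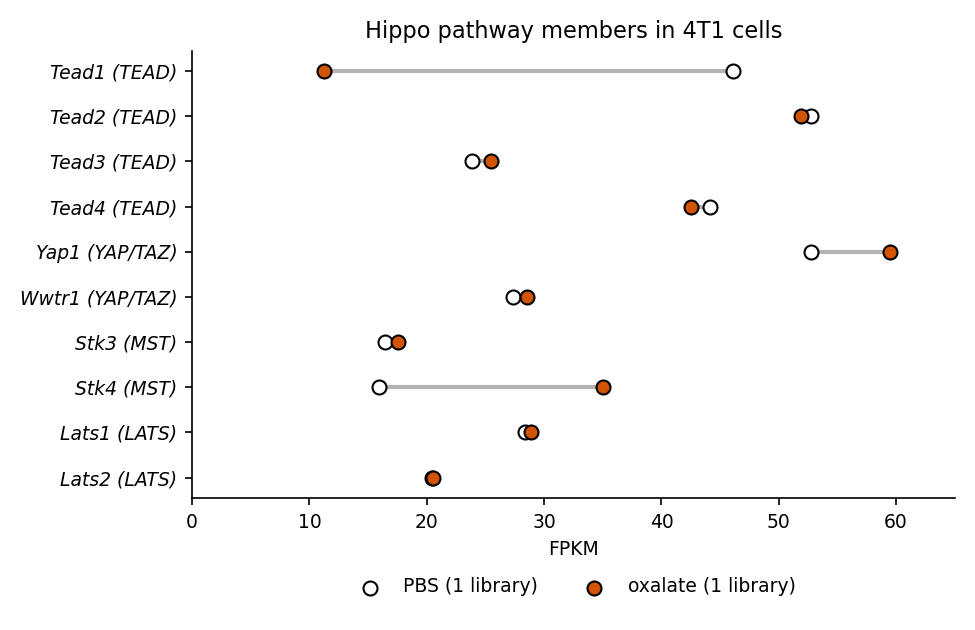
Level of each member in the 2 libraries, with FPKM on the horizontal axis and 1 row per gene; open points are the PBS library, filled points the oxalate library, and a line joins the 2. Tead1 goes from 46.09 to 11.28 FPKM and Stk4 from 15.96 to 35.04 FPKM, and the points of the other 8 genes lie close together.

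Among the TEAD factors, which bind DNA for YAP and TAZ, Tead1 (ENSMUSG00000055320, chromosome 7, 112679318 to 112906807 of GRCm38, plus strand) had 46.09 FPKM with PBS and 11.28 FPKM with oxalate. The PBS value was 4.09 times the oxalate value, and the log2 fold change was -1.94. It ranked 6 among the falls of the expressed genes, and 0.36% of these were lowered at least 2-fold. Among them the level of Tead1 was at percentile 77.3 in the PBS library and at percentile 38.7 in the oxalate library. From the FPKM and the mean length of its coding transcripts, 7703 and 1211 reads were estimated. An exact 95% counting interval (Clopper-Pearson) was set on the log2 ratio without a pseudocount, and for Tead1 it went from -2.12 to -1.94. It covers counting error only. Gm44462, a microRNA gene, overlaps Tead1 on the same strand, as does a noncoding gene on the opposite strand. Neither was among the genes listed, and their part in the Tead1 value was not tested.

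The other TEAD genes did not share this difference. Tead2 (ENSMUSG00000030796, chromosome 7, 45215753 to 45233644) had 52.75 FPKM with PBS and 51.91 FPKM with oxalate (log2 fold change -0.02). Tead4 (ENSMUSG00000030353, chromosome 6, 128224288 to 128300823) had 44.12 FPKM with PBS and 42.51 FPKM with oxalate (log2 fold change -0.05). Tead3 (ENSMUSG00000002249, chromosome 17, 28331671 to 28350817) had 23.89 FPKM with PBS and 25.43 FPKM with oxalate (log2 fold change 0.09). For Tead2 and Tead4 the counting intervals of the log2 ratio included 0 (-0.10 to 0.05 and -0.13 to 0.02). With the longest coding transcript in place of the mean length, the Tead2 interval still included 0, whereas that of Tead4 went from -0.11 to -0.0015 and did not. The Tead3 interval went from 0.011 to 0.17.

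By FPKM, which is per length, Tead2 was the highest TEAD gene in both libraries, and no replicate spread exists by which to rank it against Tead1 and Tead4 in the PBS library. Tead1 made up 27.6% of the TEAD sum with PBS and 8.60% with oxalate. The shares of Tead2 (31.6% and 39.6%), Tead4 (26.4% and 32.4%) and Tead3 (14.3% and 19.4%) were correspondingly larger with oxalate. The TEAD sum was 166.85 FPKM with PBS and 131.13 FPKM with oxalate. Without Tead1 it was 120.76 and 119.85 FPKM, so that the other 3 genes were not higher in sum in the library in which Tead1 was lower. When FPKM was multiplied by the mean coding transcript length to give shares of estimated reads, Tead1 was the largest TEAD gene with PBS (42.2%) and the smallest with oxalate (15.2%). On that scale Tead2 held 19.4% with PBS, and Tead4 was the largest with oxalate (29.5%).

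**Figure D2:**
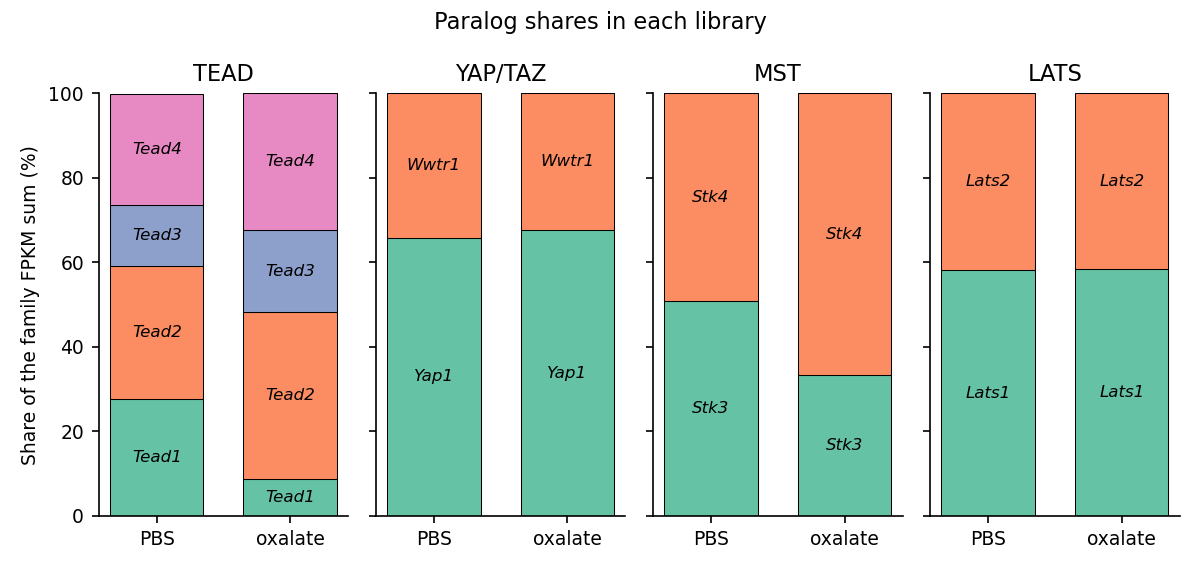
Share of each paralog in the FPKM sum of its family (vertical axis, percent) in the PBS and the oxalate library, 1 panel per family. Tead1 takes 27.6% of the TEAD bar with PBS and 8.60% with oxalate, Stk4 takes 49.2% and 66.7% of the MST bar, and the YAP/TAZ and LATS bars look alike in both libraries.

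The coactivators that bind TEAD factors were close in both libraries. Yap1 (ENSMUSG00000053110, chromosome 9, 7931999 to 8004596), which encodes YAP, had 52.73 FPKM with PBS and 59.44 FPKM with oxalate. Its log2 fold change of 0.17 was the largest of the 8 members other than Tead1 and Stk4, and 77.5% of the expressed genes had a smaller one in size. Its counting interval went from 0.13 to 0.22. Wwtr1 (ENSMUSG00000027803, chromosome 3, 57455649 to 57575910), which encodes TAZ, had 27.37 FPKM with PBS and 28.54 FPKM with oxalate (log2 fold change 0.06), with a counting interval of 0.0074 to 0.11. Yap1 held the larger share of the pair, at 65.8% with PBS and 67.6% with oxalate.

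Of the MST kinases at the head of the cascade, Stk4 was past 2-fold and Stk3 within 1.2-fold. Stk4 (ENSMUSG00000018209, chromosome 2, 164070322 to 164155524, plus strand), which encodes MST1, had 15.96 FPKM with PBS and 35.04 FPKM with oxalate. The log2 fold change was 1.09, and the oxalate value was 2.2 times the PBS value. Of the expressed genes, 0.292% were raised at least 2-fold, and Stk4 ranked 23 among the rises. Its level was at percentile 49.0 of these genes with PBS and at percentile 71.1 with oxalate. The estimate was 2370 reads with PBS and 3342 with oxalate, in libraries of unequal depth, and the counting interval went from 1.06 to 1.21.

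Stk3 (ENSMUSG00000022329, chromosome 15, 34875496 to 35178921), which encodes MST2, had 16.46 FPKM with PBS and 17.53 FPKM with oxalate (log2 fold change 0.09). Its counting interval went from 0.0020 to 0.18 and did not include 0. By FPKM the pair was nearly even in the PBS library, with 50.8% for Stk3 and 49.2% for Stk4. In the oxalate library Stk4 held 66.7% of the pair. The MST sum was 32.42 FPKM with PBS and 52.57 FPKM with oxalate. Tomm34, which encodes a protein of mitochondrial import and overlaps Stk4 on the opposite strand, had 18.53 FPKM with PBS and 21.17 FPKM with oxalate. The library protocol does not describe a step that keeps strand, so that reads of the overlap cannot be assigned with certainty, and the part of the overlap in the Stk4 value was not tested. Gm11455, which overlaps Stk4 on the same strand, was not among the genes listed, and its part was not tested either.

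The LATS kinases, which phosphorylate YAP and TAZ, were at nearly equal levels in the 2 libraries. Lats1 (ENSMUSG00000040021, chromosome 10, 7681214 to 7716460) had 28.33 FPKM with PBS and 28.91 FPKM with oxalate (log2 fold change 0.03). Lats2 (ENSMUSG00000021959, chromosome 14, 57689662 to 57758388) had 20.43 FPKM with PBS and 20.57 FPKM with oxalate (log2 fold change 0.01). The counting intervals of both log2 ratios included 0, at -0.02 to 0.08 for Lats1 and -0.09 to 0.11 for Lats2. Lats1 held 58.1% of the LATS sum in FPKM with PBS and 58.4% with oxalate. As shares of estimated reads these were 80.0% and 80.2%.

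**Figure D3:**
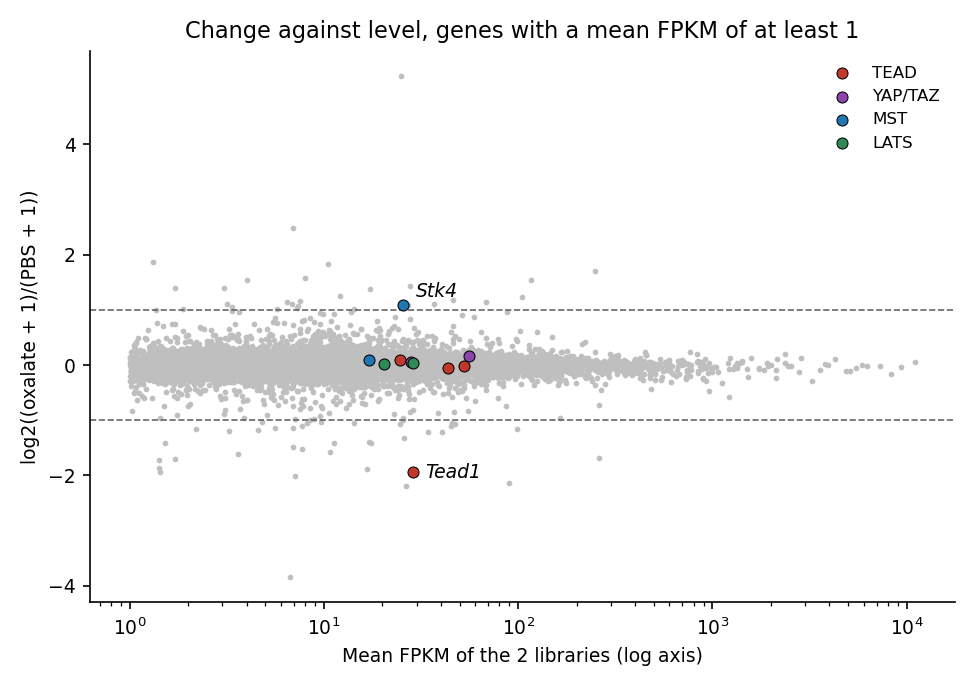
Log2 fold change (vertical axis, pseudocount of 1) against mean FPKM of the 2 libraries (horizontal log axis) for the 10267 expressed genes in grey, with the members in the colour of their family; dashed lines mark 2-fold. Tead1 at -1.94 and Stk4 at 1.09 lie outside the lines, and the other members lie in the dense band around 0.

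The number of annotated coding transcripts differed widely among the members, and FPKM depends on the transcript length used for a gene. Tead1 has 11 coding transcripts of 0.546 to 9.964 kb, the longest being 18.2 times the shortest. Stk4 has 4, of 0.428 to 5.232 kb, a ratio of 12.2. The members with close values have from 2 to 9 coding transcripts. Tead2 has 9 coding transcripts (0.388 to 3.396 kb) and Lats2 has 7 (0.302 to 5.191 kb), with length ratios of 8.75 and 17.2. Tead4 has 5 coding transcripts, Tead3 has 4, Yap1, Stk3 and Lats1 have 3 each, and Wwtr1 has 2.

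Across the expressed genes, 4 of 2613 genes with 1 coding transcript (0.153%) were past 2-fold, beside 0.653% of all. The share was 0.746% of the 1207 genes with 4 coding transcripts, as many as Stk4 has, and 0.685% of the 584 genes with 8 or more, among which is Tead1. All 4 of the changed genes with 8 or more coding transcripts were lower with oxalate, and Tead1, which was picked for its change, is 1 of these 4. Stk4, also picked for its change, is 1 of the 9 genes past 2-fold among those with 4 coding transcripts. No member has 1 coding transcript. The part of transcript number and length in the values of Tead1 and Stk4 was not tested.

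**Figure D4:**
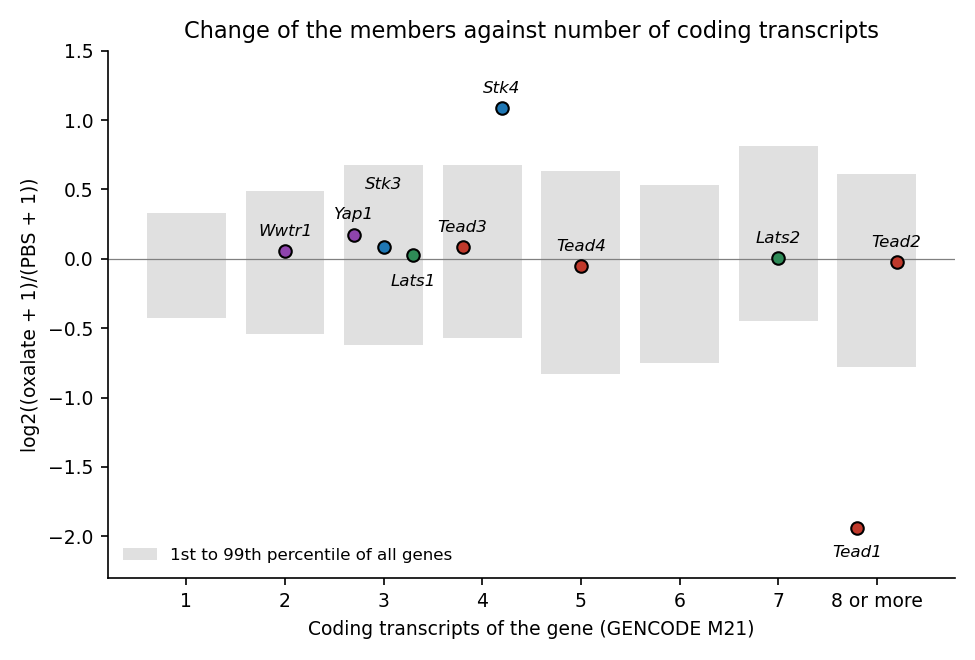
Log2 fold change of each member (vertical axis, pseudocount of 1) against its number of annotated coding transcripts (horizontal axis, 8 or more joined; points of a column are set side by side); grey bars run from the 1st to the 99th percentile of all expressed genes with that number. Tead1, with 11 coding transcripts, lies below its bar and Stk4, with 4, above its bar, and both were picked for their changes. Tead2, with 9, lies near 0.

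Over the 2 libraries a pattern is no more than 1 fold change. Among genes averaging 5 FPKM or more, the 3 with the log2 fold change nearest to that of Tead1 were Atxn7l3 (-1.87), Mfap3 (-2.01) and Tjap1 (-2.14). Those nearest to Stk4 were Suv39h1, which encodes a histone methyltransferase (1.09), Fen1, which encodes a DNA flap endonuclease (1.10), and H6pd, an enzyme of the endoplasmic reticulum (1.07). These genes have from 3 to 11 coding transcripts. Of the 10267 expressed genes, 2613 have 1 coding transcript and 2450 have 2. Whether transcript number bears on these fold changes was not tested.

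The rest of the pathway was described with 6 lists of 101 genes in all, written from general knowledge. All 101 were found and 82 were expressed genes. None of the 82 was past 2-fold, and 2 (2.44%) were past 1.5-fold, beside 1.99% of all genes. Of all expressed genes 90.1% were within 1.2-fold, against which the list counts below are to be read. Their median log2 fold change was 0.033, with 53 genes higher and 29 lower, where 50.6% of all expressed genes were higher. Both genes past 1.5-fold belong to the list of kinase scaffolds and activators. Taok1, a kinase that activates MST kinases, had 5.39 FPKM with PBS and 10.1 FPKM with oxalate (log2 fold change 0.80), and its counting interval went from 0.84 to 0.97. Rassf5, which binds MST kinases through its SARAH domain, had 16.59 FPKM with PBS and 9.26 FPKM with oxalate (log2 fold change -0.78), and its interval went from -0.95 to -0.73.

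The remaining 20 expressed genes of the scaffold and activator list stayed below 1.5-fold. Of its 22 expressed genes, 19 (86.4%) were within 1.2-fold. Besides Taok1 and Rassf5, Mob1b was outside it, with 13.37 FPKM with PBS and 10.66 FPKM with oxalate (log2 fold change -0.30). The most abundant genes of this list were Map4k4, a kinase that activates LATS, and Nf2, which encodes the membrane scaffold merlin. Map4k4 had 110.55 FPKM with PBS and 116.7 FPKM with oxalate, and Nf2 had 98.47 and 103.29 FPKM. Sav1, the partner of the MST kinases, had 48.43 FPKM with PBS and 46.34 FPKM with oxalate. Of the 13 expressed genes of the list of kinase inhibitors, which holds the STRIPAK phosphatase complex, 10 were higher and 3 lower with oxalate, with a median of 0.068 and all within 1.2-fold. Its most abundant genes were the phosphatase subunits Ppp2r1a (273.78 FPKM with PBS and 283.44 with oxalate) and Ppp2cb (76.42 and 83.27 FPKM).

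All 14 genes of the list of YAP/TAZ retention and turnover were expressed, and all were within 1.2-fold (median -0.033). They include the 14-3-3 proteins that hold phosphorylated YAP in the cytoplasm, of which Ywhae (1315.22 FPKM with PBS and 1246.99 with oxalate) and Ywhaz (395.5 and 357.82 FPKM) were the most abundant. Among the VGLL cofactors, which compete with YAP for TEAD factors, Vgll4 had 26.86 FPKM with PBS and 26.14 with oxalate, and Vgll3 had 5.83 and 6.39 FPKM. Vgll1 stayed at or below 0.09 FPKM, and Vgll2 was listed at 0 in both libraries. Of 19 cadherins and polarity proteins, 12 were expressed and within 1.2-fold, led by Tjp1 (88.51 and 92.28 FPKM) and Prkci (82.54 and 83.5 FPKM), while 5 (Fat3, Fat4, Dchs1, Dchs2 and Crb1) were listed at 0 in both libraries.

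YAP, TAZ and TEAD factors act through target genes. The list of targets holds 24 genes known to depend on YAP/TAZ and TEAD factors in other cells, of which 19 were expressed genes. All 19 were within 1.2-fold, beside 90.1% of all genes. Beside 50.6% higher among all expressed genes, 14 of these targets were higher and 5 lower with oxalate. Their median log2 fold change was 0.028, and the range ran from -0.18 for Arhgef17 to 0.24 for Gadd45a. The 24 targets summed to 1638.76 FPKM with PBS and 1680.56 FPKM with oxalate.

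TEAD factors bind DNA at the letters GGAATG, which read CATTCC on the other strand. Of 250 bases before each start site in RefSeq (GRCm38.p6), 12.6% of 32851 promoters held these letters on either strand. Promoters were found for 17 of the 24 targets, and 7 of their 18 promoters (38.9%) held the letters. The 3 printed here belong to the most abundant such targets whose window holds no annotated exon, and capitals mark the letters searched. Each reads 5′ to 3′ along the gene and ends at the base before the start site.
Axl (chr7:25788734-25788983, minus strand): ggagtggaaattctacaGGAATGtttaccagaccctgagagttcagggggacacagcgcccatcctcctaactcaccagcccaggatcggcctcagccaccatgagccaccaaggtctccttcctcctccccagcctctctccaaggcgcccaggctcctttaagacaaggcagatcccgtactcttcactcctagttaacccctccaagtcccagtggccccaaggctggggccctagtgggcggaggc
Ccn1 (chr3:145649986-145650235, minus strand): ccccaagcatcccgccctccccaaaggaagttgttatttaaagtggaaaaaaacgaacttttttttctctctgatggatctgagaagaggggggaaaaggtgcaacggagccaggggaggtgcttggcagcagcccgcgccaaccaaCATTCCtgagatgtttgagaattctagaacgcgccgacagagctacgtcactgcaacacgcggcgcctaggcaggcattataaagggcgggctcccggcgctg
Ajuba (chr14:54577662-54577911, minus strand): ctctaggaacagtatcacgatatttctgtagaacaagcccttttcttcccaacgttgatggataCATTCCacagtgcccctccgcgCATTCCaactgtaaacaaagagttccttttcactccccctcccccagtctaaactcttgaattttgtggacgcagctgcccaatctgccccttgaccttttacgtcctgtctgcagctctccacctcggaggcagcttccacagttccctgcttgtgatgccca
The letters begin 103 bases before the start site in Ccn1 and 233 bases before it in Axl, and they occur 2 times in Ajuba, 186 and 164 bases before it. These matches describe the sequence and are not evidence of binding in these cells.

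The targets named here had close values in both libraries. Ccn1, which encodes a matrix protein and is among the most used YAP readouts, had 281.39 FPKM with PBS and 282.98 FPKM with oxalate (log2 fold change 0.01), and its counting interval went from -0.02 to 0.03. Axl, which encodes a receptor tyrosine kinase, had 345.66 FPKM with PBS and 364.26 FPKM with oxalate (log2 fold change 0.08). Ajuba, which encodes a LIM protein that restrains LATS, had 50.65 FPKM with PBS and 51.55 FPKM with oxalate. Ccn2, which encodes connective tissue growth factor, had 264.35 and 272.09 FPKM, a log2 fold change of 0.04. Ankrd1, which encodes an ankyrin repeat protein, had 97.73 and 88.86 FPKM, a log2 fold change of -0.14 with a counting interval of -0.18 to -0.09. The library with the lower Tead1 FPKM thus held these targets within 1.2-fold of the PBS library, and whether the 2 measurements are related was not tested.

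**Figure D5:**
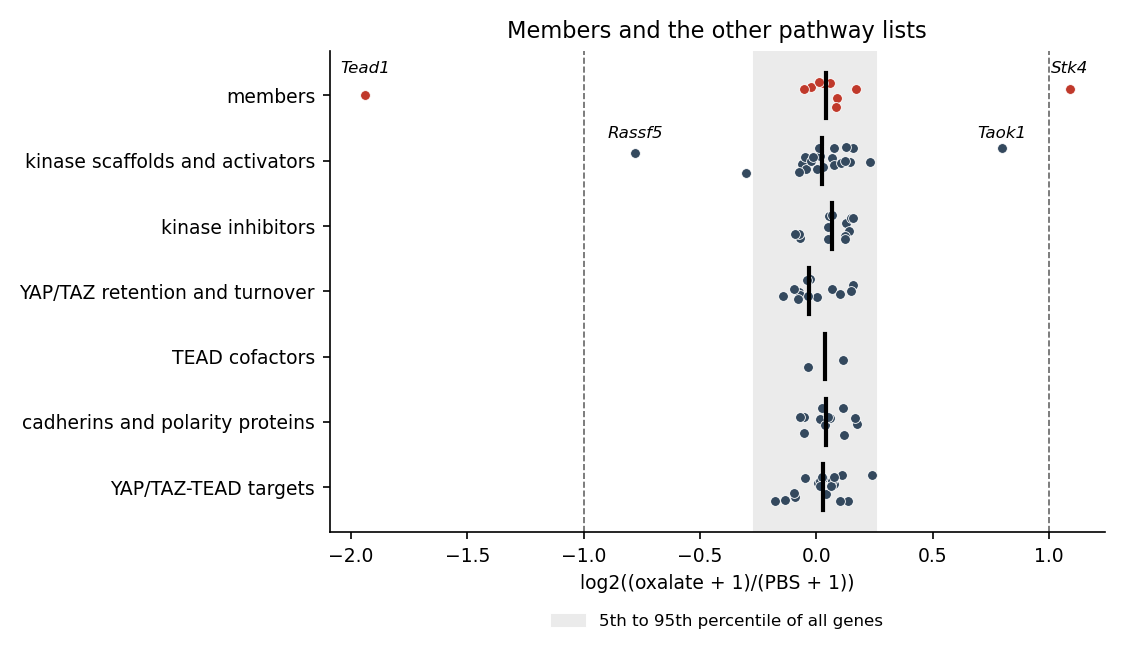
Log2 fold change (horizontal axis, pseudocount of 1) of every expressed gene, for the 10 members and the 6 other pathway lists (rows; points are genes, black bars the median of the row). The grey band is the 5th to 95th percentile of all genes, and dashed lines mark 2-fold. Tead1 and Stk4 lie outside the lines, Taok1, Rassf5 and Mob1b between the band and the lines, and all 19 targets between -0.18 and 0.24.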

How the data were processed

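Polyadenylated RNA of 4T1 cells was enriched with oligo(dT) beads and reverse transcribed from random primers, and 2 Illumina libraries were sequenced, 1 per condition. For 21911 genes the authors deposited FPKM to 2 decimals. The submitters' processing notes name Bowtie2 2.2.8 and TopHat2 2.1.1, and the quantification tool, genome build and annotation are not given in the sources used here. Symbols, coordinates and transcripts come from GENCODE M21 (GRCm38), in which 21848 identifiers were found. Promoters come from RefSeq (GRCm38.p6).

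The members and gene lists were chosen with earlier results of these data known. Named genes were the members, genes of the lists past 1.5-fold, the 2 most abundant genes of each list, Ccn1, Ccn2, Ankrd1 and Axl, and the 3 genes with a fold change nearest to Tead1 and Stk4. Genes that overlap a member on the same strand were also named. Sav1, Mob1b, Ajuba, Arhgef17, Gadd45a, Tomm34 and Vgll1 were named after their values were seen, as were genes listed at 0. The fold change used a pseudocount of 1 and genes averaging at least 1 FPKM. With 1 library per condition no test was run.

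Depth was estimated because FPKM times length fell on multiples of 0.0176 (PBS) and 0.0274 (oxalate) in short genes with 1 transcript. Reads were FPKM times the mean coding transcript length over this step, and intervals from them cover counting error only. The scripts were tested on simulated data. Stretches of 50 bases of the members were searched in all annotated transcripts, in the sense direction only, and coding sequences were aligned globally. The scripts used scipy 1.17.1 for intervals, pandas 2.3.3 and numpy 2.4.6 for tables, and matplotlib 3.10.9 for figures (Python 3.11.15).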

Additional observations from a re-analysis of the deposited data

How the results depend on the processing

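No paired analysis was possible because a single library stands for either condition, so that none could be left out. The alternatives were pseudocounts of 0.1 and 0.001, a rescaling to a median ratio of 1, all genes listed or a mean FPKM of at least 5, a 1.5-fold threshold and shares of estimated reads. The log2 fold change of Tead1 was -2.03 with a pseudocount of 0.001. The count of members past 2-fold and the counts of list genes past 1.5-fold stayed within 1.5 times under every alternative run for them. The member count rests on Tead1 and Stk4, which were picked for their changes, so that its stability supports nothing. Every member averaged more than 5 FPKM, so that the settings for low values could not alter that count. Of 24 values of the other 8 members under these settings 0 changed sign. Shares of estimated reads moved 16 paralog shares, since the lengths of the paralogs differ. Rounding to 2 decimals and the unknown transcript lengths limit the read estimates.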

Other observations

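The letters GGAATG or CATTCC also occurred before some of the members' own start sites. Promoters were found for 7 of the 10 members, with 11 windows of 250 bases, of which 5 (45.5%) held the letters, beside 12.6% of all promoters. The 5 windows belong to 3 genes. They were windows of Yap1, of Wwtr1 (2 overlapping windows that hold the same match) and of Tead3 (2 overlapping windows, with another Tead3 window lacking them), and none of those of Stk4, Tead2, Lats1 or Lats2 held them.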
